A study of Mus musculus with 6 samples.

Results

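The 5 DNA mismatch repair genes described here are Msh6, Msh3, Pms2, Mlh3 and Pms1, chosen by name in the array annotation from 18193 genes measured. They are read by 10 probe sets: 4 for Msh3, 3 for Pms2 and 1 each for Msh6, Mlh3 and Pms1. RNA came from CT26 cells, a murine colon carcinoma line of the BALB/c strain. A group of 3 samples, called control, had received the empty plasmid pU6-m3, and another 3, called shSep15, the same plasmid with a hairpin RNA against Sep15 (now Selenof), a selenoprotein of the endoplasmic reticulum. A single hairpin sequence was used, and the sources used here do not tell clonal lines from pools of transfected cells. With 1 Affymetrix Mouse430_2 array per sample, every value below is a log2 RMA value as deposited. All log2 differences are shSep15 minus control.

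Mismatch repair removes the base mispairs and small loops that DNA polymerases leave behind them. MutS homologues, which work as heterodimers, recognise the error: Msh6 serves the complex for single mispairs and short loops, and Msh3 the complex for larger loops. MutL homologues are then recruited; Pms2 carries the endonuclease that nicks the new strand, Mlh3 belongs to a MutL complex best known from meiotic crossing over, and the role of Pms1 in repair is less well defined. An exonuclease, the sliding clamp and its loader, a single-strand binding protein, a polymerase and a ligase then remove and refill the strand. Loss of this pathway in colon tumours gives microsatellite instability.

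Sequences ahead of the annotated start sites are shown for Msh6 and Pms2, whose RNA differed between the groups, and for Msh3, the other MutS homologue. They are the 250 bases before the start, 5′ to 3′ on the gene's own strand, from RefSeq (GRCm38.p6), in which all 5 genes were found. Capitals mark matches on either strand to the GC box GGGCGG, the CCAAT box CCAAT, or an E2F-type octamer, spelled TTTGGCGC, TTTCCCGC, TTTCGCGC or TTTGCCGC.
Msh6, chr17:87974800-87975049, plus strand: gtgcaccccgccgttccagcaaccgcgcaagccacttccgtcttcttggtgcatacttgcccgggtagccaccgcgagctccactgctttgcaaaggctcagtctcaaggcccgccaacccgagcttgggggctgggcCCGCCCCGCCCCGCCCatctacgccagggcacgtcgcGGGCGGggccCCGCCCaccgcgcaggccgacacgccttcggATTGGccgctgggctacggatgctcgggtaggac
Msh3, chr13:92355004-92355253, minus strand: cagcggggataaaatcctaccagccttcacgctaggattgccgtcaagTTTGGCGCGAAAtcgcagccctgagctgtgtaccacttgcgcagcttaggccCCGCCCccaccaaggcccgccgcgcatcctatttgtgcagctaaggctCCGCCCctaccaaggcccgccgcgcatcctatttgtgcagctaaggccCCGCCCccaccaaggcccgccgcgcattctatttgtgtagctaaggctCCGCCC
Pms2, chr5:143909751-143910000, plus strand: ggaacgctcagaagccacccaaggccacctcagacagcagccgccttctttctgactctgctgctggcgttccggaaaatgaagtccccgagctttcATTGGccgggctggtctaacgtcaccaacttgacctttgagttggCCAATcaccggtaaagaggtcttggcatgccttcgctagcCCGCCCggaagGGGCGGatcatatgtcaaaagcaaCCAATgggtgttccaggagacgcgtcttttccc

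In the window from 250 bases before to 50 after the start, Msh6 held 5 GC boxes, 1 CCAAT box and 1 E2F-type octamer. That octamer, TTTCCCGC, begins at base 16 after the start and so lies outside the stretch printed. Msh3 held 4 GC boxes and an E2F-type octamer at base −202 from the start, which overlaps another on the opposite strand. Pms2 held 2 GC boxes and 3 CCAAT boxes, Pms1 1 GC box and 2 CCAAT boxes, and Mlh3 1 CCAAT box in each of its annotated windows. Among 32851 windows of that length, 2.26% held an E2F-type octamer, 35.7% a GC box and 37.4% a CCAAT box. These matches describe letters only; binding was not measured.

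The comparison asked which transcripts differ once Sep15 is knocked down. The target itself, Selenof, read 12.40 ± 0.05 (SD, n = 3) in control and 9.48 ± 0.13 (SD, n = 3) in shSep15 cells. The arrays' median values lay between 5.83 and 5.87, and an array's mean correlation over probe sets with its own group was 0.993 to 0.995, against 0.977 to 0.979 with the other group. Msh6 and Pms2 rose in shSep15 cells and none of the 5 genes fell, whereas Msh3, Mlh3 and Pms1 did not pass the test. Over all genes, 12.2% were higher, 12.8% lower and 25.0% called in either direction (limma, Benjamini-Hochberg adjusted p under 0.05); with 5 genes, a share of 2 called is read only beside that background. The median difference of the 5 genes was 0.24, against 0.01 over all genes. Among the probe sets, 3 of the 10 were called, all higher, beside 19.4% of the 45037 tested. The groups did not overlap for 2 of the 5 genes, beside 38.1% of all genes.

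**Figure D1:**
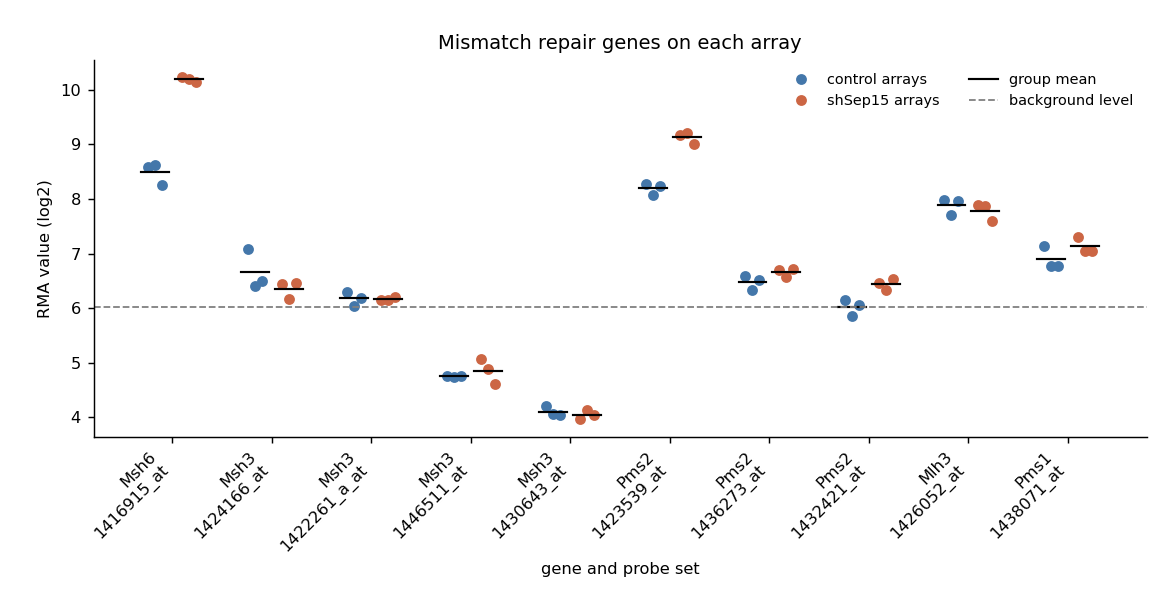
Log2 RMA values (vertical axis) of the 10 probe sets of the mismatch repair genes on the 3 control and 3 shSep15 arrays; each point is an array, bars are group means and the dashed line is the background level of 6.02. The shSep15 points of Msh6 and of the brightest Pms2 probe set all lie above the control points, while those of Msh3, Mlh3 and Pms1 are intermixed with them.

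Msh6, the mispair-binding MutS homologue, read 8.59, 8.63 and 8.25 on the control arrays and 10.24, 10.20 and 10.14 on the shSep15 arrays. The groups were far apart, with the lowest shSep15 array above the highest control array, and the shSep15 arrays lay closer together (SD 0.05) than the control arrays (SD 0.21). The difference was 1.70 (SE 0.12, 95% interval 1.43 to 1.97, limma adjusted p = 2.01e-05), a 3.26-fold rise. It was the 75th largest rise among the 18193 genes. Msh6 has a single probe set on the array, so no other probe set bears on this value. Leaving out any 1 array gave differences of 1.58 to 1.78, and all 6 such fits kept the call.

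Msh3, the MutS homologue for larger loops, read 7.09, 6.41 and 6.49 on the control arrays and 6.44, 6.16 and 6.47 on the shSep15 arrays on its brightest probe set, 1424166_at. Control 1 was the high array here, and the other control arrays fell within or beside the shSep15 range. The difference of −0.31 did not pass the test (SE 0.19, 95% interval −0.73 to 0.11, limma adjusted p = 0.330), and it was −0.10 without control replicate 1. The second probe set, 1422261_a_at, read 6.18 in control and 6.17 in shSep15 cells. Both probe sets were less than 1 log2 unit above the background level of 6.02, which is set by receptor genes that these cells are not known to use. The remaining pair of Msh3 probe sets, at 4.04 to 4.86 in group means, lay under that level. The interval leaves room for a fall of Msh3 but not for a rise of the size seen for Msh6. RMA values of dim probe sets compress differences toward 0.

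On each array the value of Msh6 was set against that of the brightest Msh3 probe set. This compares how far the probe set values moved, but not which transcript is more abundant. Because the Msh3 probe set lay close to background, a change of its transcript may be understated in this offset. Msh6 minus Msh3 was 1.499, 2.217 and 1.758 on the control arrays and 3.803, 4.039 and 3.675 on the shSep15 arrays. The offset between these genes was thus larger on every shSep15 array, by 2.01 on average. With 3 arrays against 3 the two-sided exact permutation test gave p = 0.10, the smallest value this design allows, so it cannot pass 0.05.

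Pms2, the MutL homologue with the endonuclease, read 8.273, 8.071 and 8.247 on the control arrays and 9.173, 9.215 and 9.003 on the shSep15 arrays on its brightest probe set, 1423539_at. All shSep15 arrays lay above all control arrays. The difference was 0.93 (SE 0.11, 95% interval 0.68 to 1.19, limma adjusted p = 0.000393), a 1.91-fold rise and the 511th largest of the 18193 genes. The other probe sets of Pms2 moved less. Probe set 1432421_at read 6.16, 5.86 and 6.06 in control and 6.46, 6.33 and 6.54 in shSep15 samples, again without overlap, a difference of 0.42 (limma adjusted p = 0.0394). That call held in 1 of the 6 fits with an array left out and ended in the others, with adjusted p up to 0.141. Probe set 1436273_at, with group means of 6.48 and 6.66, was not called (difference 0.18, limma adjusted p = 0.379). When the probe sets of each gene were averaged, the difference of Pms2 was 0.51 (limma adjusted p = 0.00330). Its size, and on single probe sets its call, thus depend on the probe set read. The group means of all 3 were higher in shSep15 cells, but the groups overlapped for 1436273_at. The less bright probe sets lay close to the background level, and which transcript forms each of them reads was not tested.

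Mlh3, the MutL homologue of meiotic crossing over, read 7.98, 7.71 and 7.96 on the control arrays and 7.89, 7.87 and 7.60 on the shSep15 arrays. The groups overlapped. The difference was −0.10 (95% interval −0.39 to 0.20, limma adjusted p = 0.709).

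Pms1 read 7.14, 6.77 and 6.76 on the control arrays and 7.31, 7.04 and 7.04 on the shSep15 arrays. Replicate 1 was the highest of each group, and control 1 lay above shSep15 2 and 3, so the groups overlapped. The difference of 0.24 did not pass the test (95% interval −0.09 to 0.57, limma adjusted p = 0.344). The intervals of both Mlh3 and Pms1 stop below the lower bound for the brightest Pms2 probe set, 0.68. They still allow changes of up to 0.39 downward for Mlh3 and 0.57 upward for Pms1.

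Within each array, Pms2 minus Pms1 was 1.13 to 1.48 in control and 1.86 to 2.17 in shSep15 samples, an average gain of 0.70. Pms2 minus Mlh3 went from 0.29 to 0.36 in control samples to 1.29 to 1.40 in shSep15 samples, a gain of 1.03. Neither range overlapped between the groups, and each exact permutation test gave the smallest p possible, 0.10. With averaged probe sets the gain of Pms2 over Pms1 was 0.27 (exact permutation p = 0.20), so this contrast rests on the brightest Pms2 probe set.

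**Figure D2:**
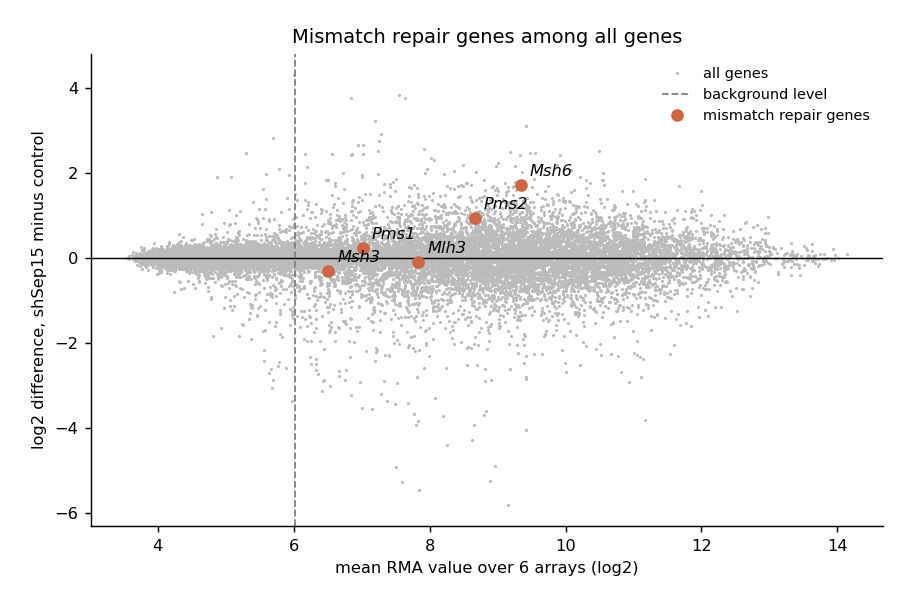
Log2 difference, shSep15 minus control (vertical axis), against the mean log2 RMA value over the 6 arrays (horizontal axis) for 18193 genes in grey and the 5 mismatch repair genes in orange, with the background level of 6.02 as a dashed line. Msh6 (1.70) and Pms2 (0.93) lie toward the upper edge of the cloud, and Pms1, Mlh3 and Msh3 lie near its centre.

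A list of repair partners mostly rose. Its counted genes, apart from Setd2 (described below), carry out the later steps of the repair and also serve DNA replication. Of 17 listed, 16 had a probe set of their own. Of these, 10 rose (62.5%, beside 12.2% of all genes), 1 fell (beside 12.8% of all genes) and 5 were not called. Their median difference was 0.67 beside 0.01 over all genes. Exo1, the exonuclease that digests the nicked strand, read 6.942, 7.004 and 7.097 on the control arrays and 8.404, 8.453 and 8.216 on the shSep15 arrays. Its groups were well separated, with a difference of 1.34 (SE 0.12, limma adjusted p = 6.47e-05). The DNA ligase Lig1 rose by 1.37, from 9.82 ± 0.29 to 11.19 ± 0.06 (SD, n = 3 each), the catalytic polymerase subunit Pold1 by 1.33, and the single-strand binding subunit Rpa2 by 1.32 (limma adjusted p from 5.87e-05 to 1.46e-04 for these 3). These are the 4 greatest changes of the list. The accessory polymerase subunit Pold4 fell by 0.53 (limma adjusted p = 0.0143), and that call ended without control replicate 2 or without shSep15 replicate 2 or 3 (adjusted p up to 0.0632). Pold3, another subunit of that polymerase, rose by 0.46 (limma adjusted p = 0.0128), and its call ended without shSep15 replicate 2 (limma adjusted p = 0.0517).

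The clamp was not called, and 4 of the 5 subunits of its loader were called on their brightest probe sets, beside 25.0% of all genes. The sliding clamp Pcna, which tethers MutS and MutL complexes to the fork, read 12.72, 12.71 and 12.69 in control and 12.80, 12.85 and 12.87 in shSep15 samples. Its groups did not overlap, yet the difference of 0.13 did not pass the test (limma adjusted p = 0.0522). Of the 5 clamp loader subunits, Rfc2, Rfc3 and Rfc5 rose by 1.06 to 1.25, Rfc1 by 0.30, and Rfc4 was not called on its brightest probe set (0.24). Its other probe set above background was higher by 0.67 (limma adjusted p = 0.00483). The call of Rfc1 held in 1 of the 6 fits with an array left out (adjusted p up to 0.0726). Setd2, the methyltransferase that makes the H3K36 mark to which Msh6 binds, read 9.06 in control and 8.93 in shSep15 cells and was not called (difference −0.12, limma adjusted p = 0.518). The probe sets of Hmgb1 also name another gene and were left out of the counts. The rise of Msh6 and Pms2 thus stood beside a rise of replication genes, and its dependence on the share of dividing cells was not tested. In bulk RNA, more cells that express a gene and more RNA per cell cannot be told apart.

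**Figure D3:**
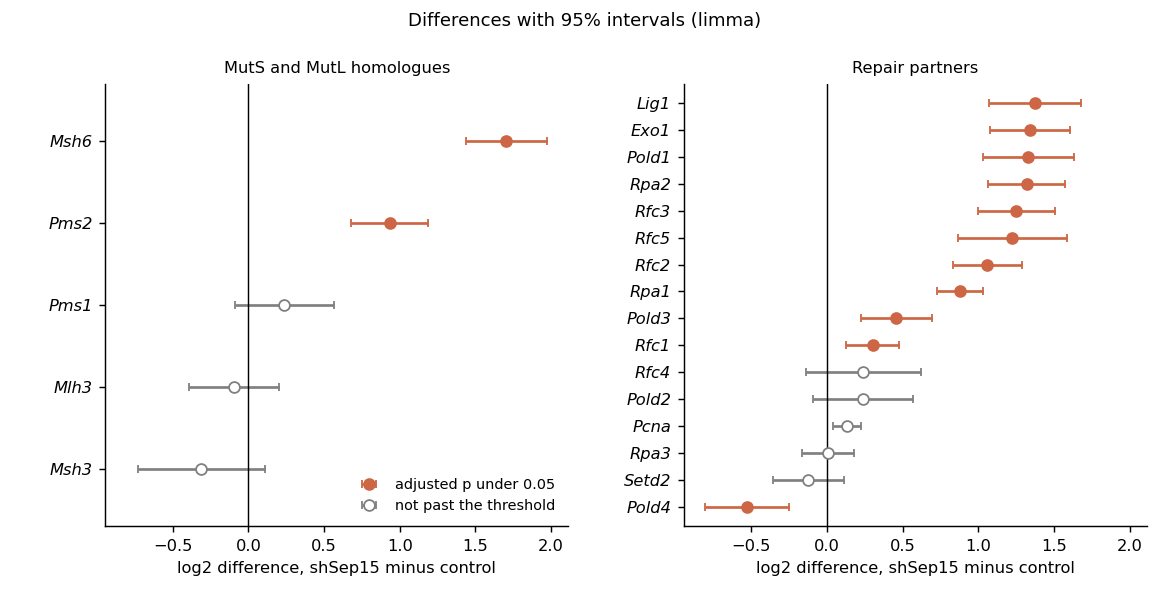
Log2 differences, shSep15 minus control (horizontal axis), with 95% intervals from limma for the 5 mismatch repair genes (left) and 16 repair partners (right); filled points passed an adjusted p of 0.05 and open points did not. Msh6 has a larger difference than any partner shown, the highest of which is Lig1 at 1.37.

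Genes beside each mismatch repair gene were read by gene order alone. Msh6 lies on chromosome 17, where 174 of 545 genes above background were higher and 46 lower (median 0.17), against 2102 and 2148 of 10870 over the genome (median 0.01). Of the 10 genes nearest to Msh6, 5 were above background and 0 were called in limma (1 at an unadjusted p under 0.05), with differences of −0.10 to 0.29. Those next to it, Kcnk12, which was below background, and Fbxo11, differed by 0.11 and 0.16. The highest of the 10, Ppp1r21, singled out after its value was seen, stayed far under the 1.70 of Msh6. Pms2 on chromosome 5 had 3 higher and 2 lower neighbours of 10, with differences of −0.95 to 0.43. The genes beside it, Aimp2 and Ccz1, rose by 0.34 and 0.31, less than Pms2. Mlh3 on chromosome 12 had 4 lower neighbours of 10, including Eif2b2 and Acyp1 on either side (−0.50 and −0.55), and Pms1 on chromosome 1 had 2 lower. Msh3 on chromosome 13 had 1 neighbour called, which was higher and below the background level, and 9 of its 10 neighbours were below that level. Calls were uneven on these chromosomes as well, among their genes above background. Chromosome 12 had 47 higher and 97 lower of 390, and chromosome 1 had 83 and 155 of 605. Chromosome 5 had 186 higher and 130 lower of 719, and chromosome 13 had 89 and 53 of 379.

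**Figure D4:**
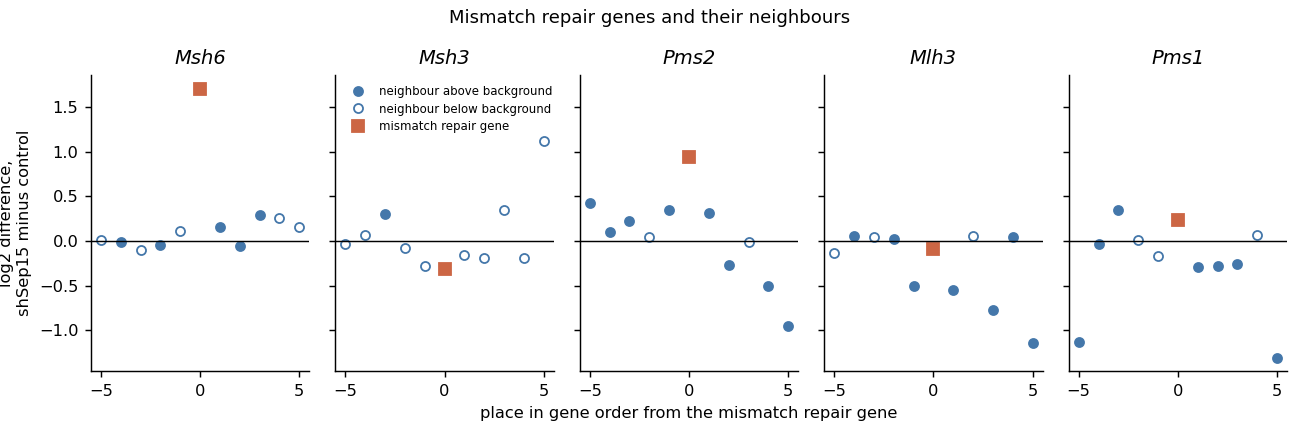
Log2 difference, shSep15 minus control (vertical axis), of each mismatch repair gene (square) and of the 5 measured genes on either side of it (circles, open where the mean was below the background level), by place in gene order (horizontal axis). Msh6 at 1.70 stands above neighbours of −0.10 to 0.29, and Pms2 at 0.93 above neighbours of −0.95 to 0.43.

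Among 10869 other genes above background, those with values most like Msh6 over the 6 arrays, each gene centred on its own mean, were Palld, Lrp8 and Cryz, with root mean square distances of 0.07 to 0.09. For Pms2 they were BC055324, Sec24b and Capza1, at 0.04 to 0.05. This is a description over 6 arrays in 2 groups. Palld (1.61), Lrp8 (1.72) and Cryz (1.58) differed by amounts close to that of Msh6, which follows from how they were chosen.

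The labelled cell type was checked against marker genes. Of 9 epithelial markers 4 were above background (Epcam, Krt8, Krt20 and Lgals4), while Cdh1 read 4.03 in control and 4.01 in shSep15 cells and Cdx2 5.60 and 5.56. Over the list the mean per array was 6.10 to 6.24 in control and 5.44 to 5.64 in shSep15 samples, with 3 lower and 6 not called. The 3 lower were Krt18 (6.65 in control and 4.48 in shSep15 cells), Krt20 (8.28 and 6.15) and Lgals4 (6.85 and 5.84). Krt18 lay above the background level of 6.02 in control cells only. The mesenchymal markers, 6 of 7 above background, averaged 9.51 to 9.62 in control and 8.62 to 9.13 in shSep15 samples but moved apart: 3 rose (Col1a1 by 1.32, Col1a2 by 0.64 and Vim by 0.23) and 3 fell (Pdgfrb with a difference of −3.36, Col3a1 −2.27 and Dcn −1.72), with a median of 0.21. Of 6 leukocyte markers, Csf1r (7.11 in control and 7.20 in shSep15 cells) and Cd3e (6.26 and 6.39) were above background, while Ptprc read 4.14 and 4.23. Itgam, below background, was the only one of the 6 called (−0.37, limma adjusted p = 0.0204). Of 4 endothelial markers Kdr (6.24 and 6.22) was above background, and none was called in limma, 0 of them at an unadjusted p under 0.05. These lists averaged 5.55 to 5.81 and 5.29 to 5.33 over all 6 arrays. The part of the marker shifts in the rise of Msh6 and Pms2 was not tested.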

How the data were processed

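Total RNA of 6 CT26 samples was extracted with TRIzol and labelled as biotinylated cRNA, per the labels' protocols. The authors deposited log2 values from RMA (background correction, normalization between arrays, summary of probes), per the submitters' processing notes. Which version of RMA was run is not given in the sources used here. Normalization between arrays hides a change of total RNA per cell. No further scaling was applied to these values (3.31 to 14.24).

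Of 45101 rows, array controls were set aside and 45037 probe sets were fitted with limma 3.58.1 in R 4.3.3 (lmFit, eBayes with an intensity trend, group as the only term). Two-sided p-values were adjusted by the Benjamini-Hochberg method over all of them, at a threshold of 0.05. A gene took its brightest probe set with 1 symbol over the 6 arrays; 34945 probe sets had 1 symbol, 932 several and 9160 none, and 34741 of the first were found in the RefSeq table (GRCm38.p6), used for names and gene order. The background level, 6.02, is the 95th percentile of mean values for 78 olfactory and vomeronasal receptor probe sets.

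Groups came from the sample titles. The mRNA samples of a group were different ones, but separate cultures are not stated, so p-values measure only the spread between these samples; the number of arrays limits the precision. The members and lists were chosen with earlier results of these data known. Named genes were the members, list genes among the 4 greatest called changes of a list, Exo1, Pcna and Setd2, adjacent neighbours, and the 3 nearest patterns of each called member; one gene of the rule is not reported here. Other genes of the lists (Rfc1 to Rfc5, Pold3, Pold4, Smug1, Mutyh, Ogg1, Mgmt, Tdg, Msh4, Msh5 and markers beyond the rule) were named after their values were seen. The fit was tested on simulated data.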

Additional observations from a re-analysis of the deposited data

How the results depend on the processing

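The differences of the 5 members kept their direction and side of the threshold under the alternatives run, and counts of calls stayed within 1.5 times. Msh6 minus Msh3 and Pms2 minus Pms1 kept their direction with an array left out or the probe sets of a gene averaged, though the latter took Pms2 minus Pms1 from 0.70 to 0.27; their exact permutation test cannot pass the threshold in this design, and Pms2 minus Mlh3 was not recomputed. List genes whose own call ended are given beside their values. The number of members above background moved. It was 5 of 5 genes at the 95th and 90th percentile of the receptor probe sets and 3 at the 99th, where Msh3 and Pms1 dropped below it. The difference of Msh6 stayed at 1.58 to 1.78 and that of Pms2 at 0.87 to 1.00 with any 1 array left out. Without the intensity trend, with arrays shifted to the same median, or with dim probe sets removed, 2 member genes were called each time. With the replicate number as a block, the adjusted p of Msh6 was 3.91e-05 and that of Pms2 0.00106 (limma), with 2 member genes called, and 4591 genes called against 4543. Whether the replicate numbers pair the samples was not settled. Deviations from the group means correlated at 0.38, −0.15 and −0.02 between same-numbered arrays and at −0.36 to 0.37 between the others. Deviations from a mean of 3 arrays are bound to each other, so these correlations cannot decide it. With 1 array left out, 3497 to 4191 genes were called over the whole array and 8 to 11 of the repair partners. Limits are the 3 arrays per group, a single hairpin, and the closeness of Msh3 and of the lesser Pms2 probe sets to background.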

Other observations

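Genes that repair or prevent damaged bases, work that mismatch repair shares for oxidised and alkylated guanine, rose in part. Of 12 measured, 4 rose (33.3%, beside 12.2% of all genes), 1 fell (beside 12.8% of all genes) and 7 were not called. Their median difference was 0.40 beside 0.01 over all genes. Nudt1, which clears oxidised guanine nucleotides from the pool, read 8.35, 8.89 and 8.68 in control and 9.91, 9.89 and 9.92 in shSep15 samples, a rise of 1.26 (SE 0.14, limma adjusted p = 0.000225). Neil3, a glycosylase of oxidised bases, rose by 1.03, the endonuclease Apex1 by 0.75 and the alkyladenine glycosylase Mpg by 0.58 (limma adjusted p up to 0.00439). Ogg1, the glycosylase of oxidised guanine, and Mutyh, which removes adenine paired with it, were not called: Ogg1 differed by −0.03 and Mutyh by 0.44 (limma adjusted p = 0.893 and 0.0648), though Mutyh passed without shSep15 replicate 1 (limma adjusted p = 0.0174). Mgmt, which removes methyl groups from guanine, differed by 0.04. Smug1 fell by 0.38 (limma adjusted p = 0.0332), a call that held in 1 of the 6 fits with an array left out. Probe sets of Tdg also name other genes and were left out.

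The MutS homologues of meiosis were not called. Msh4 read 4.82 in control and 4.58 in shSep15 cells, under the background level, and Msh5 6.52 and 6.56.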
